A study of Drosophila melanogaster with 4 samples.

Results

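The 234 broad H3K4me2 domains on the X chromosome of adult Drosophila melanogaster heads are the regions of at least 8000 bp that end within the first 20.5 Mb of X in the list made from both ChIP replicates, called the combined list here. They were chosen by width and position alone, from 959 regions of that list on this part of X and 5559 regions in the whole list. The flies were wild-type Oregon-R, labelled as mixed adults with no sex given, and were raised in population cages with an adult cycle of 22 days. Heads were sieved from whole flies and so hold many cell types at once, and a mark in few cells cannot be told apart from a weaker mark in many. Chromatin was fixed with formaldehyde, sheared and precipitated with an H3K4me2 antibody from Active Motif, and the DNA was sequenced (ChIP-seq). The 2 ChIP libraries and the 2 input DNA libraries share the same strain, genotype and stage. The head label could not be checked against marker genes, because the regions carry no gene names here. Separate collections of flies for the replicates are not named in the labels, so technical and biological differences between the replicates cannot be told apart.

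H3K4me2 is histone H3 carrying a pair of methyl groups on lysine 4, placed by methyltransferases of the Trithorax, Trithorax-related and Set1 complexes. In flies it marks active promoters and enhancers and reaches into the bodies of transcribed genes, so that a run of closely packed active genes or a long active gene can appear as a broad block. The X chromosome is known for dosage compensation, in which the MSL complex binds active genes of the single male X and acetylates histone H4 at lysine 16. Female flies have a pair of X chromosomes and do not assemble that complex.

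The broad domains held most of the H3K4me2-marked sequence of X. They covered 3.43 Mb, which was 16.7% of the first 20.5 Mb of X, and took up 58.3% of the bases inside any X region, although they were 24.4% of the X regions by number (exact Clopper-Pearson 95% interval 21.7 to 27.2%, for counting error only). In the whole combined list 17.1% of regions were at least 8000 bp wide. Width chose the domains, so these shares are a description. Median domain width was 12.9 kb, with quartiles of 10.1 and 17.5 kb. There were 177 domains of at least 10 kb, 86 of at least 15 kb, 35 of at least 20 kb and 9 of at least 30 kb. The 725 narrower X regions had a median width of 2871 bp. Widths ran on without a break at the threshold, where the nearest members were 8007 bp (X 15234302 to 15242308) and 8027 bp wide (X 11744762 to 11752788) and the nearest regions left out were 7967 bp (X 16774550 to 16782516) and 7955 bp wide (X 5510536 to 5518490). A further 6 X regions of this width lay beyond 20.5 Mb, and the widest of them was 30.5 kb.

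The 10 widest domains together covered 369 kb, or 10.7% of the bases in broad domains, and 5 of them lay between positions 15590738 and 18767068. Positions are on FlyBase release 5, counted from 1. The widest domain, at X 15735886 to 15793570, was 57.7 kb wide. Replicate 1 gave it as regions of 23.9 and 32.7 kb, and replicate 2 gave it as regions of 34.1 and 23.2 kb. The break lay at 15759999 to 15760409 in replicate 1 (411 bp) and at 15769961 to 15770481 in replicate 2 (521 bp). Each replicate therefore marked the bases at which the other broke off, and neither list held the block whole.

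The second widest domain, at X 15590738 to 15645346, was 54.6 kb wide. It was a single region of 54.5 kb in replicate 2 and a pair of 21.3 and 32.3 kb in replicate 1, with 827 bp between them. The third, at X 16465558 to 16502842 (37.3 kb), was in 3 pieces in each replicate. Its largest piece was 22.2 kb in replicate 1 and 29.1 kb in replicate 2, and the covered share was 88.6% and 93.4%. The short last piece, of 2.02 kb in replicate 1 and 2.09 kb in replicate 2, began at 16500439 in replicate 1 and at 16500585 in replicate 2.

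Among the rest of the 10 widest, 4 were single regions in both replicates. These were X 1765506 to 1796912 (31.4 kb, covered to 99.6% in replicate 1 and 99.3% in replicate 2), X 2517098 to 2548310 (31.2 kb, 91.7% and 94.8%), X 9035946 to 9066528 (30.6 kb, 97.7% and 99.8%) and X 19520752 to 19550200 (29.4 kb, 97.3% and 99.8%). The domain at X 16163542 to 16196944 (33.4 kb) was whole in replicate 2 and cut by 1491 bp in replicate 1. The domain at X 18737042 to 18767068 (30.03 kb) was also whole in replicate 2, at 29.5 kb, but in replicate 1 it was in 3 pieces of 8.31, 1.35 and 16.1 kb. The domain at X 364906 to 398222 (33.3 kb) was cut at the same place in both replicates, by 1810 bp in replicate 1 and 1334 bp in replicate 2, and the combined list bridged the cut.

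Broad domains were found along the whole of the first 20.5 Mb, at 11.4 per Mb, with no stretch of 1 Mb free of them. Successive stretches of 5 Mb from 0 to 20 Mb held 54, 54, 59 and 60 domains, and their mean covered share was 15.5%, 15.9%, 16.5% and 19.3%. Median width in these stretches was 13.1, 13.2, 13.1 and 12.2 kb. The count and the covered share were thus highest from 15 to 20 Mb, where the median width was lowest. Over the 20 full windows of 1 Mb the number of domains ran from 5 to 18 with a median of 11, and the variance was 1.08 times the mean.

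Single windows differed more than these stretches. The window from 15 to 16 Mb had the largest share inside broad domains, 27.5% with 15 domains, and the window from 11 to 12 Mb had the most domains, 18 with 26.7% covered. The window from 16 to 17 Mb followed with 16 domains and 24.6%, and the window from 1 to 2 Mb with 16 domains and 23.4%. The least covered were 3 to 4 Mb (6.73%) and 14 to 15 Mb (7.99%), with 5 domains each. The window from 3 to 4 Mb nonetheless held 45 narrower regions, the second highest number of the 20 windows, and 14.4% of it lay inside them. Across the 20 windows the share in broad domains and the share in narrower regions had a Spearman's rho of 0.0030, and the number of broad domains and the number of narrower regions one of -0.27. Both are descriptions over windows of the same list.

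**Figure D1:**
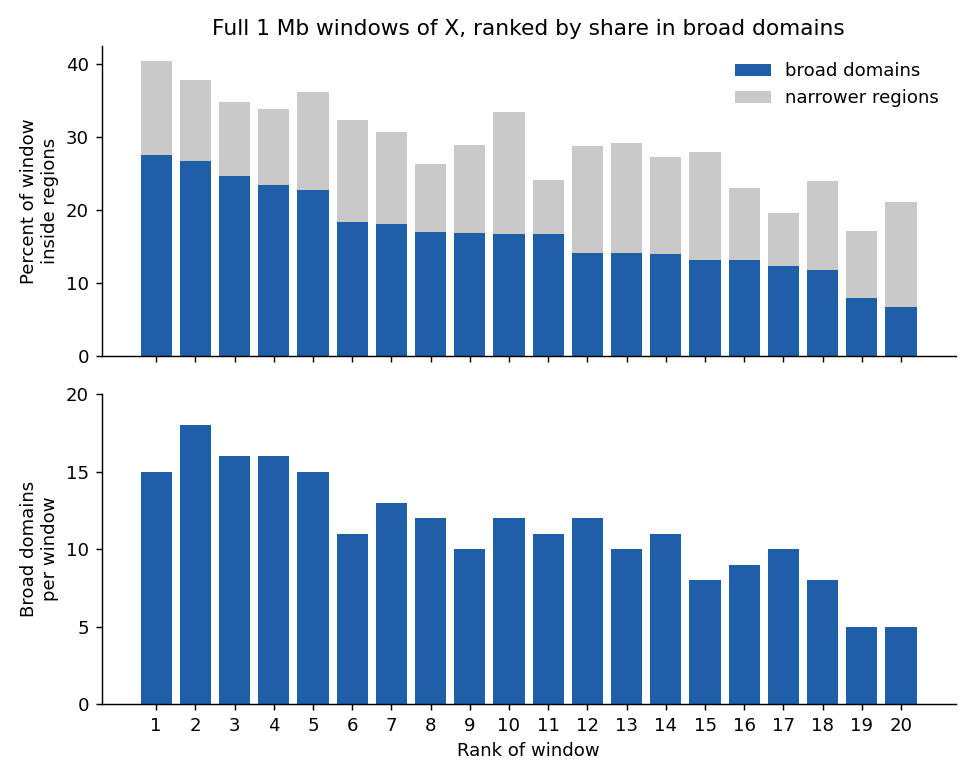
Share of each full 1 Mb window of X inside broad domains (blue) and narrower regions (grey) in the upper panel, and the number of broad domains in the lower panel, for 20 windows ranked by the share in broad domains. The blue share falls from 27.5% to 6.73%, while the grey share does not follow that order.

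Distances between successive domains were unequal, with many short and some long. They were not compared with a random placement, so grouping beyond the density of domains was not tested. The distance from the end of one domain to the start of the next had a median of 29.0 kb and a mean of 72.2 kb (SD 95.6 kb over 233 distances, quartiles 7.35 and 107 kb). Of these distances, 65 were under 10 kb, 134 under 50 kb and 61 were 100 kb or more. Another broad domain lay within 50 kb of 191 of the 234 domains (81.6%, exact 95% interval 76.1 to 86.4%) and within 10 kb of 113 (48.3%, 41.7 to 54.9%). A short distance counts for both of its domains, and neighbouring domains are not independent. These intervals, and all others given here, are for counting error only. Linking domains at most 50 kb apart gave 57 groups of 2 or more and 43 single domains, and 70 domains fell into the 10 groups of 5 or more. The groups depended on this distance. Groups of 5 or more held 36 domains when linked at 25 kb and 151 at 100 kb, and the largest group had 7 and 16 domains. Width did not rise with grouping at 50 kb: the median was 12.7 kb for single domains, 12.9 kb for domains in groups and 11.6 kb in groups of 5 or more.

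With linking at 50 kb, the largest group by number spanned X 1901446 to 2189316 with 10 domains. They were 8.57 to 24.3 kb wide and filled 50.2% of the 288 kb, and 8 of them were a single region in both replicates. All regions together covered 60.7% of that span in replicate 1 and 64.7% in replicate 2. The next group, X 15590738 to 15893640, had 9 domains, both of the widest included. Domains filled 71.3% of its 303 kb, and regions of any width covered 74.6% in replicate 1 and 78.2% in replicate 2. It was the densest of the 5 groups named here.

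Another 2 groups had 8 domains each. X 19370044 to 19653170 was 283 kb long and 46.7% filled, with 59.0% of the span covered in replicate 1 and 64.6% in replicate 2. X 16163542 to 16346312 was 183 kb long and 63.8% filled, with 64.7% and 69.1%. The group at X 6113384 to 6267688 had 7 domains over 154 kb and was 67.9% filled. There replicate 1 covered more than replicate 2, at 73.7% against 72.9% of the span, unlike in the other 4 groups.

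Some breaks between domains were very short. In 18 cases the next domain began under 1 kb away, and the shortest such distance was 5 bp, after the domain at X 13656154 to 13669328. Of the 234 domains, 111 had another region of any width within 1 kb (47.4%, exact 95% interval 40.9 to 54.0%), against 271 of the 725 narrower X regions (37.4%, 33.8 to 41.0%). A region within 5 kb on both sides was present at 86 domains, and 5 domains had none within 20 kb on either side. In the order of regions along X, the region after a broad domain was itself broad in 57 of 234 cases (24.4%), and the region after a narrower one was broad in 177 of 724 (24.4%). The shares were thus alike, and at most 4 broad domains came in a row.

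The longest stretch without a broad domain ran from X 2633613 to 3371927, over 738 kb. It was not free of H3K4me2: it held 21 narrower regions of the combined list, 15 in replicate 1 and 14 in replicate 2, which covered 8.32% of it in the combined list. The widest region inside it was 5.08 kb in replicate 1 and 5.39 kb in replicate 2. X 14167441 to 14717909 (550 kb) held 12 narrower regions, and X 9582677 to 9972001 (389 kb) held 9. In these the widest replicate regions were 5.26 and 6.80 kb, and 3.56 and 3.76 kb.

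**Figure D2:**
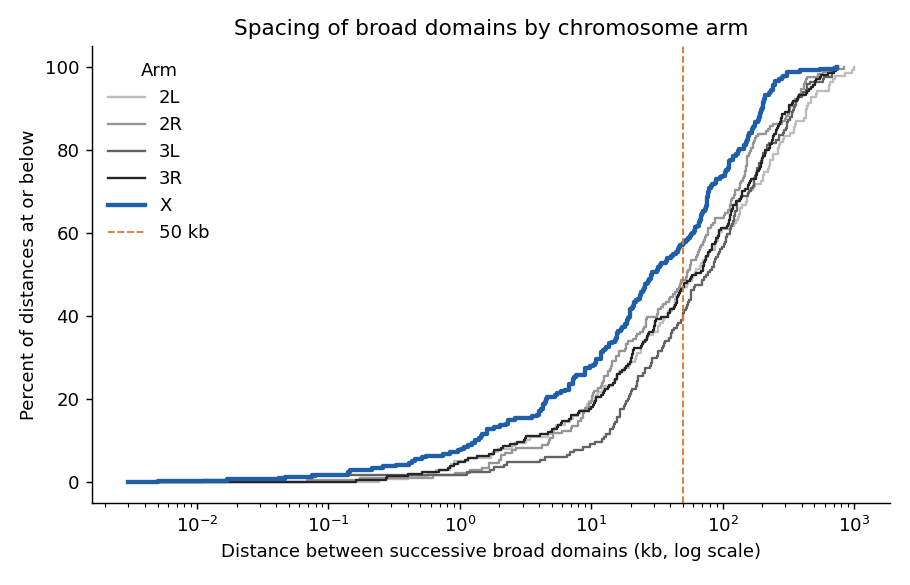
Cumulative percent of the distances between successive broad domains (regions of at least 8000 bp in the combined list), on a log scale in kb. X is shown to 20.5 Mb and the 4 large autosomal arms at full length. The X curve lies to the left of the other arms over most of the range, with a median of 29.0 kb, and the dashed line marks 50 kb.

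Broad regions were denser on the first 20.5 Mb of X than on the large autosomal arms. This is a description, as the rule chose by width. The autosomal arms were taken at full length and X only to 20.5 of its 22.4 Mb. The part of X left out held 6 regions of this width, so unlike parts are set side by side. The autosomal arms had 678 regions of at least 8000 bp, at 6.04 (2L) to 7.99 (2R) per Mb, covering 7.29% (2L) to 9.23% (2R) of the arm. The median distance between them was 53.8 to 76.5 kb. As a fraction of the mean distance, the median distance was 0.402 on X and 0.399 to 0.572 on the autosomal arms, and the SD was 1.32 times the mean on X and 1.15 to 1.35 times on the others. On this scale the spacing of X domains did not leave the autosomal range. The share with another broad region within 50 kb was 81.6% on X and 63.0 to 71.6% on the autosomal arms. Domains of at least 20 kb numbered 35 on X, and 5 to 12 on an autosomal arm. No test was made of X against the arms, since a single arm against 4 allows no p under 0.2 in an exact permutation.

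The replicate lists rebuilt the domains unequally. A domain counted as in 1 piece where exactly 1 replicate region met it by at least 1 bp. Each of the 234 domains met at least 1 region in each replicate, as did each of the 678 broad autosomal regions. Of all combined regions, most of them narrower, 18.3% met none in at least 1 replicate. A region that met none counted as not in 1 piece. The shares of all combined regions below therefore mix absence with splitting and do not give how often a region was split. In both replicates 139 domains were in 1 piece (59.4%, exact 95% interval 52.8 to 65.8%), against 72.9% of all combined regions, most of which were narrower. Replicate 1 left 145 domains in 1 piece (62.0%, 55.4 to 68.2%), against 78.4% of all combined regions. Replicate 2 left 194 in 1 piece (82.9%, 77.5 to 87.5%), against 81.0% of all combined regions. Replicate 1 alone split 55 domains, replicate 2 alone split 6, and both split 34.

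On the autosomal arms the replicates lay closer together. By arm, 72.7 to 79.9% of them were in 1 piece in replicate 1 and 73.9 to 79.9% in replicate 2. Regions split in replicate 1 only were 8.63 to 11.5% of the broad regions of an autosomal arm and 23.5% of the X domains. Regions split in replicate 2 only were 6.83 to 10.9% and 2.56%. X domains were wider, so the shares were also compared within classes of width. Among domains of 10 to 15 kb, 67.0% were in 1 piece in replicate 1 on X (n = 91) against 70.7 to 83.0% on the autosomal arms, and 87.9% in replicate 2 against 75.6 to 80.0%. Among domains of at least 15 kb, the share in replicate 1 was 44.2% on X (n = 86) against 44.4 to 62.1% (n = 27 to 38 by arm). In replicate 2 it was 73.3% against 48.3 to 59.3%. This class has no upper bound and does not match width, as X had 35 domains of at least 20 kb and an autosomal arm 5 to 12. At 8 to 10 kb (n = 57) X had 80.7% against 81.5 to 86.2% in replicate 1, and in replicate 2 its 89.5% lay within the autosomal range of 73.8 to 90.8%. When regions under 1000 bp apart were merged first, X had 69.2% in 1 piece in replicate 1 against 78.1 to 84.0%, but in replicate 2 its 80.2% lay inside the autosomal range of 77.9 to 85.4%. The differences between X and the arms were not tested, and each replicate is a single pair of ChIP and input libraries.

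**Figure D3:**
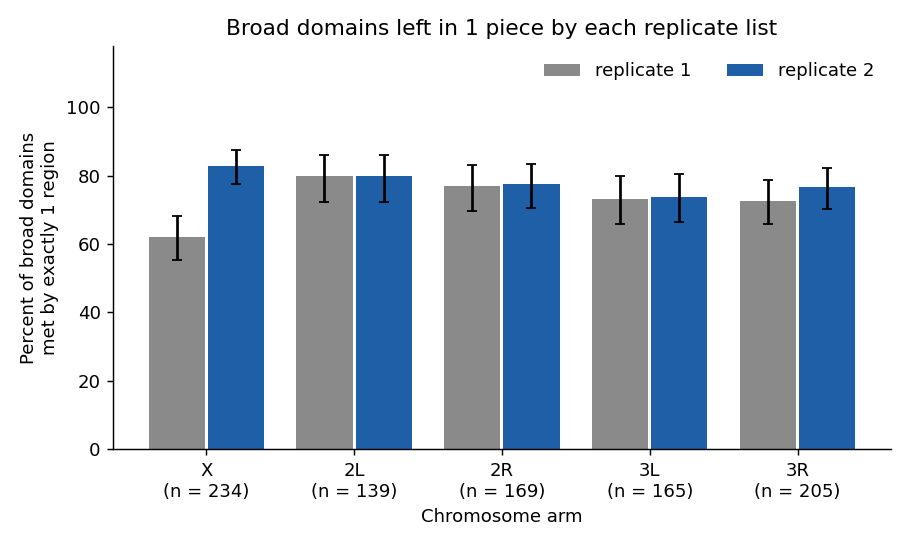
Percent of broad domains met by exactly 1 region of the replicate 1 list (grey) or the replicate 2 list (blue) on X and on the 4 large autosomal arms, with exact 95% binomial intervals for counting error. On X the bars are at 62.0% and 82.9%, while on each autosomal arm they differ by less than their intervals.

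Most cuts were short, and most of those in replicate 1 were bridged in replicate 2. Inside the domains replicate 1 left 106 breaks between its regions, with a median of 413 bp and a maximum of 3592 bp, and replicate 2 left 43, with a median of 319 bp and a maximum of 2297 bp. A break under 200 bp was seen 37 times in replicate 1 and 21 times in replicate 2. The middle 50% of the domain held 71 of the 106 breaks in replicate 1 and 26 of the 43 in replicate 2. A break cannot lie at the very edge of a domain, since a replicate region must lie on each side of it. Replicate 2 regions fully covered 80 of the 104 replicate 1 breaks of at least 1 bp (76.9%, exact 95% interval 67.6 to 84.6%), and 4 were wholly open in replicate 2. Of the 43 replicate 2 breaks, 18 were fully covered in replicate 1 (41.9%, 27.0 to 57.9%) and 13 were wholly open. In 22 of the 34 domains split in both replicates a break of one overlapped a break of the other, and in 12 none did, as in the widest domain.

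Splitting went with width. In replicate 1, 11 of 57 domains of 8 to 10 kb were split (19.3%), 30 of 91 of 10 to 15 kb (33.0%), 29 of 51 of 15 to 20 kb (56.9%) and 19 of 35 of at least 20 kb (54.3%). Replicate 2 split 10.5%, 12.1%, 23.5% and 31.4% of the same classes. A wide domain offers more room for a break, so these shares are a description. The median score that the authors gave the domains was 1.56 for those split in replicate 1 and 1.79 for those in 1 piece. For replicate 2 it was 1.52 and 1.75.

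The most pieces over both lists together, 6, were found in 4 domains, of which the third widest was described above. X 6687976 to 6706898 (18.9 kb) was in 3 pieces in each replicate, with a middle region of 8.07 kb in replicate 1 and 9.65 kb in replicate 2. The authors' score of that middle region was 1.61 and 1.67, against 0.66 to 0.96 for the flanking ones. X 16870332 to 16881894 (11.6 kb) was made of 3 regions of 1.44, 1.71 and 4.76 kb in replicate 1 and of 1.56, 3.69 and 3.88 kb in replicate 2. The authors' scores of these pieces were 0.57 to 0.98. In neither replicate did a region of at least 8000 bp lie there. The narrowest of the 4 was X 1313102 to 1321992 (8.89 kb, score 0.71), with 4 pieces in replicate 1 and 2 in replicate 2. It was covered to 86.6% in replicate 1 and to 62.7% in replicate 2, the lowest difference of replicate 2 minus replicate 1 among the 234 domains (-23.9 percentage points). One other domain was in 4 pieces in replicate 1, X 14717910 to 14736428 (18.5 kb, score 1.65). It was whole in replicate 2, and its breaks in replicate 1 were 105, 5 and 204 bp long.

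Replicate 2 filled the X domains more fully. The median covered share of a domain was 93.6% in replicate 1 (quartiles 86.6 and 97.2%) and 98.4% in replicate 2 (quartiles 95.4 and 99.4%). The share was higher in replicate 2 in 185 of 234 domains (79.1%, exact 95% interval 73.3 to 84.1%), against 49.9% of all combined regions. The median difference, replicate 2 minus replicate 1, was 3.88 percentage points (quartiles 0.642 and 8.76). It exceeded 10 points in 51 domains and was below -10 points in 4. In each of the 20 full windows of 1 Mb replicate 2 covered more of the bases in broad domains. For broad autosomal regions the median difference lay between -0.14 (2R) and 0.0982 (3R) points, and 47.3 to 51.7% of them were covered more fully in replicate 2. The difference was also present where no list had a split: among the 139 domains in 1 piece in both replicates, 105 were covered more fully in replicate 2, at a median difference of 2.88 points. The 55 split in replicate 1 only had a median difference of 7.27 points. The covered share of the narrower X regions is not given here, so the difference cannot be called particular to broad domains. Outside the domain edges on X replicate 2 also covered more, as the values below show.

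**Figure D4:**
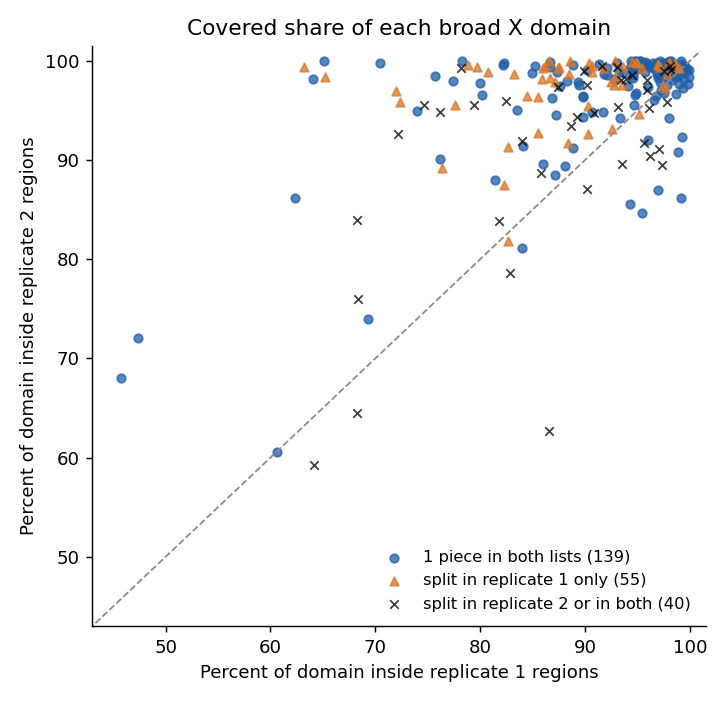
Percent of each of the 234 broad X domains inside replicate 1 regions (horizontal axis) and replicate 2 regions (vertical axis), with symbols for domains in 1 piece or split, and a dashed line where both are equal. Points above the line, 185 of 234, were covered more fully in replicate 2.

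Replicate 1 regions also stopped further inside the edges of X domains. The first replicate 1 region began a median of 207 bp inside the domain's start and the last ended 209 bp inside its end, against 61 and 56 bp in replicate 2. In domains in 1 piece in both lists the medians were 189 and 164 bp in replicate 1, and 58 and 55 bp in replicate 2. At 500 bp inside the edge, 74.6% of the 468 X edges were covered in replicate 1 and 87.6% in replicate 2, while on the autosomal arms 87.2% and 88.4% of 1356 edges were. At 1000 bp outside, 13.7% and 19.4% of X edges were covered by another region or an overhang, against 12.8% and 13.3% of autosomal edges. At 2000 bp outside, 29.7% and 36.8% of X edges were covered in replicates 1 and 2, against 24.8% and 25.3% of autosomal edges. Edges of X domains in replicate 1 thus stood apart from the other 3 sets inside the edge. Outside it, replicate 2 was highest on X at both distances. Replicate 1 on X also lay above both autosomal sets, by little at 1000 bp and by more at 2000 bp. These differences were not tested. The longest overhangs were in replicate 2, where a region began 5389 bp before the domain at X 9169794 to 9179628 and another ended 5103 bp after the domain at X 19145824 to 19166366.

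**Figure D5:**
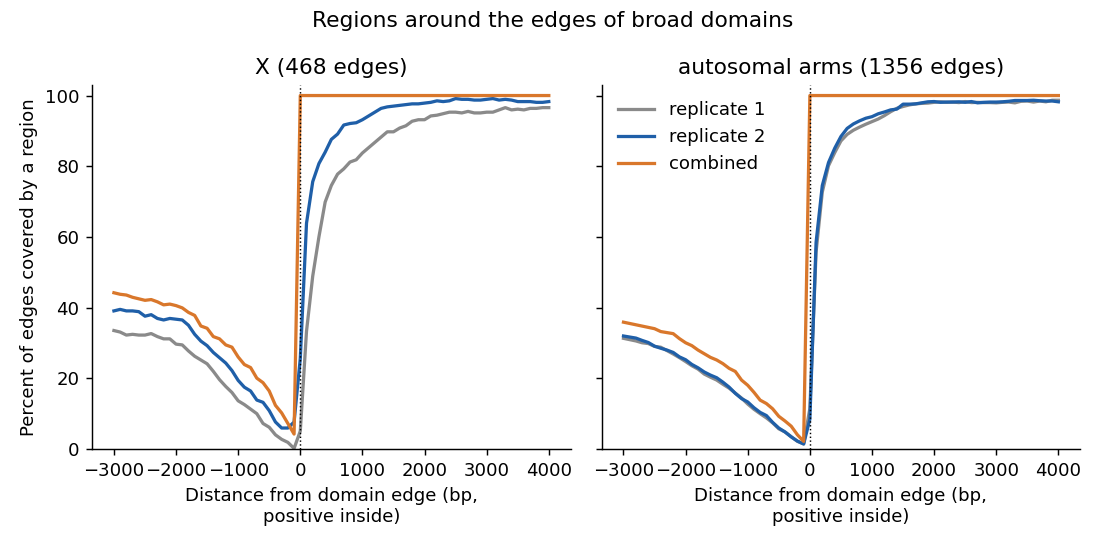
Percent of domain edges covered by a region of replicate 1 (grey), replicate 2 (blue) or the combined list (orange), by distance in bp from the edge of a broad domain (positive inside), for X and for the 4 large autosomal arms together. On X the grey line lies under the blue one, while on the autosomal arms the lines of the replicates lie close together.

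Most domains were broad in a replicate list as well. The same rule found 185 regions on the replicate 1 list, with 2.42 Mb and a widest of 32.7 kb, and 211 on the replicate 2 list, with 3.02 Mb and a widest of 54.5 kb. Each of these 396 regions overlapped one of the 234 domains, and none overlapped more than 1. The combined list was made from the same replicates, so this overlap is a description and no independent support for the domains. A region of at least 8000 bp was present in both replicates at 172 domains, in replicate 2 only at 35, in replicate 1 only at 2 and in neither at 25. The 35 had a median width of 10.3 kb, and 25 of them were split in replicate 1. The 25 found broad in neither were 8.01 to 12.7 kb wide, and 11 of them were in 1 piece in both replicates. The combined domain was wider than any single replicate region it met in 195 of 234 cases, but mostly by little: the ratio of its width to the widest replicate region had a median of 1.01 and quartiles of 1.00 and 1.07, and it reached 1.5 in 18 domains.

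The least filled domains were narrow and scored low. X 20318516 to 20329194 (10.7 kb, score 0.97) was covered to 45.8% in replicate 1, by a region of 4.89 kb, and to 68.0% in replicate 2, by one of 7.26 kb. X 10176220 to 10184866 (8.65 kb, score 0.87) was covered to 47.3% and 72.1%. X 12755794 to 12764144 (8.35 kb, score 0.69) was covered to 64.2% by a single region in replicate 1 and to 59.3% by a pair in replicate 2. Over all domains the authors' score had a median of 1.69 (range 0.69 to 2.46), against 0.74 for the narrower X regions and 1.62 for the broad autosomal regions. Score and width were weakly related in rank among the domains (Spearman's rho 0.18, over 234 regions of the same list). The number of reads behind a domain is unknown here.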

How the data were processed

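Of the 3 lists of enriched regions that the authors deposited, 1 belongs to each ChIP replicate and 1 to the replicate set, per the file headers and names. Coordinates refer to FlyBase release 5, per the file headers. The submitters' processing notes name Bowtie 0.12.7. How regions were called, at which threshold, and how the replicates were joined was not given in the sources used here. Starts and ends in the combined list were even numbers in 100% of regions, against 49.7% of starts in replicate 1. The score of a region, deposited by the authors without a definition in these sources, is used for description only.

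Domains, distances, replicate pieces and covered shares were computed in Python 3.11.15 (numpy 2.4.6, pandas 2.3.3, scipy 1.17.1, matplotlib 3.10.9), and the piece counting was tested on simulated splits. Named are the 10 widest domains, the 3 in most pieces (ties by width), the 3 least covered, the 5 largest groups, the 3 longest stretches and 2 regions on each side of 8000 bp. The 5 bp distance, the longest overhangs, both domains with 4 pieces and 6 regions beyond the limit were chosen after their values were seen, as were the comparisons by width class, of edges and of neighbours in the list. Members and measures were chosen with earlier results of these data known. Windows take a domain by its midpoint. A gene annotation and genome of release 5 were not used here, so domains carry no gene names or sequence. Input libraries were not analysed here.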

Additional observations from a re-analysis of the deposited data

How the results depend on the processing

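Alternative settings gave 27 values, each for 1 of 5 results. Of these, 16 stayed within the tolerance, 11 moved and 0 reversed. Counting a largest piece of at least 90% of the domain as 1 piece could not move the share in 1 piece, since 0 split domains had one. The number of domains stayed within 1.5 times 234, from 177 at a width minimum of 10 kb and 185 on the replicate 1 list to 330 at 6 kb, with 211 on the replicate 2 list. The share of X inside domains was 14.2% at 10 kb, 19.98% at 6 kb and 20.9% with regions under 1000 bp apart merged, and 11.8 to 14.7% on the list of a single replicate. The share of domains in 1 piece in both replicates was 65.8% at 6 kb, and 59.4% where 50% of a replicate region had to lie inside the domain. The share with another domain within reach was 70.1% at 10 kb, 89.7% at 6 kb, 71.8% within 25 kb, 92.3% within 100 kb and 75.1 to 78.2% on the list of a single replicate. A lower minimum and a longer reach take in more regions by construction, and a higher minimum and a shorter reach take in fewer. Merging adds the bases between regions. The cause of the other shifts was not tested. The covered share, replicate 2 minus replicate 1, was 5.55 points as a mean in place of the median. No paired analysis was possible because the replicate numbers are shared only with input libraries, which were not analysed here. The read depth of the libraries is unknown, and its effect was not tested.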
